A study of Mus musculus with 6 samples.

Results

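The genes that carry a cell through G1 were followed in cultures labelled as mouse aortic endothelial cells. They are the D-type cyclins Ccnd1, Ccnd2 and Ccnd3 and their kinases Cdk4 and Cdk6. The inhibitors Cdkn1b, Cdkn2b and Cdkn2c and the pocket proteins Rb1 and Rbl1 complete the set. These 10 genes, of 18193 named on the array, were taken by their symbol in the array annotation, and all 29 of their probe sets were read. RNA of 6 cultures was hybridised to Affymetrix mouse genome arrays, 1 array per culture. Of these cultures, 3 came from non-transgenic mice and 3 from transgenic mice of the same C57 strain, in which the promoter of CDH5, the cadherin of endothelial junctions, drove a dominant negative human PPARG carrying V290M. PPARG is a nuclear receptor of fatty acid ligands. Each culture pooled the cells of 2 mice, the cells of both groups were untreated, and ages were not stated. The replicates are therefore separate cultures, n = 3 per group. The comparison asks which of these genes differ in level between cultures of transgenic and non-transgenic mice. The level of the transgene in the cultures was not measured here, and markers of cell type are given further below.

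D-type cyclins are made when growth factors act on a cell, and they switch on Cdk4 and Cdk6. The active kinases phosphorylate Rb1 and its relatives, which then release E2F transcription factors, and E2F turns on cyclin E and the genes of DNA synthesis. INK4 inhibitors such as Cdkn2b and Cdkn2c bind Cdk4 and Cdk6 themselves, while KIP inhibitors such as Cdkn1b bind the assembled cyclin and kinase pairs and hold cyclin E with Cdk2 inactive. In the vessel wall most endothelial cells rest outside the cycle, and in culture they re-enter it.

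The arrays differed in ways that bear on every value below. Transgenic replicate 3 stood apart from its group. Over all genes its ranks correlated on average at 0.972 with the non-transgenic arrays but at 0.907 with those of its own group. Its label was not checked against the human transgene on these mouse probe sets, and it is called transgenic replicate 3 as labelled, so every value over all 6 arrays rests on that label. Values are therefore given culture by culture, and counts also without it. The median signal of all probe sets was 219.9 to 222.9 on the non-transgenic and 173.0 to 186.1 on the transgenic arrays, so that scaling the arrays to a common median moved the median difference of all genes from -0.02 to 0.27. The control signal of Gapdh at the 3' end over that at the 5' end is a ratio used to judge RNA quality. It ran from 1.51 to 1.71 against 1.20 to 1.44 without overlap (exact two-sided permutation p = 0.1, and a 3 against 3 design cannot go lower). The RNA was amplified before hybridisation, and what set the ratio was not tested. The same ratio for beta-actin overlapped, at 1.83 to 2.17 against 1.40 to 2.21 (exact two-sided permutation p = 0.5). The part of these array properties in the results was not tested beyond the refits named below. As the Gapdh ratio lay apart between the groups, a refit with it tells group from ratio poorly. Standard errors were larger there, 0.45 against 0.25 for Ccnd1 and 0.29 against 0.16 for Cdkn1b. Levels are log2(signal + 16), differences are transgenic minus non-transgenic on that scale, and a 95% interval and a standard error (SE) are those of limma's moderated fit across genes.

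The 10 genes did not share a direction. All 10 had at least 1 probe set above the level filter, which was set at the median level of all probe sets, and were among the 11208 genes tested. Of these genes 5 lay higher and 5 lower in the transgenic cultures, which is 50% higher against 47.5% of all genes tested, with a median difference of 0.11 against -0.02. With the arrays scaled to a common median 7 of the 10 lay higher, as did 76.4% of all genes. limma called 0 of the 10 at a Benjamini-Hochberg adjusted p of 0.05, where it called 0.0% of all genes tested. The adjusted p of the members ran from 0.428 to 0.919. At an unadjusted p under 0.05 it found 2 of the 10, Cdkn1b and Cdkn2c, against 11.5% of all genes. These same 2 inhibitors were the members whose groups did not overlap, both with transgenic cultures lower, a pattern shown by 6.72% of all genes, while 0 of the 10 lay apart on the higher side, against 9.39%. With 10 genes, 2 is a small count to set against these shares. Without transgenic replicate 3 limma called 1 member, Ccnd2, as higher. In that fit it called 14.7% of all genes, 6.88% as higher and 7.83% as lower. Weighting the arrays by their fit gave 6 called members, where 49.1% of all genes were called. With transgenic replicate 3 left out, 6 members did not overlap between groups, Ccnd1, Ccnd2 and Cdk4 higher and Ccnd3, Cdkn1b and Cdkn2c lower, where 22.8% of all genes lay apart on the higher and 27.4% on the lower side. Without transgenic replicate 2 there were 0 higher and 3 lower, Rb1 joining Cdkn1b and Cdkn2c, against 14.6% and 8.96% of all genes. With median scaling Ccnd2, Cdk4 and Cdk6 lay apart on the higher side and 0 on the lower, against 32.4% and 0.892%.

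**Figure D1:**
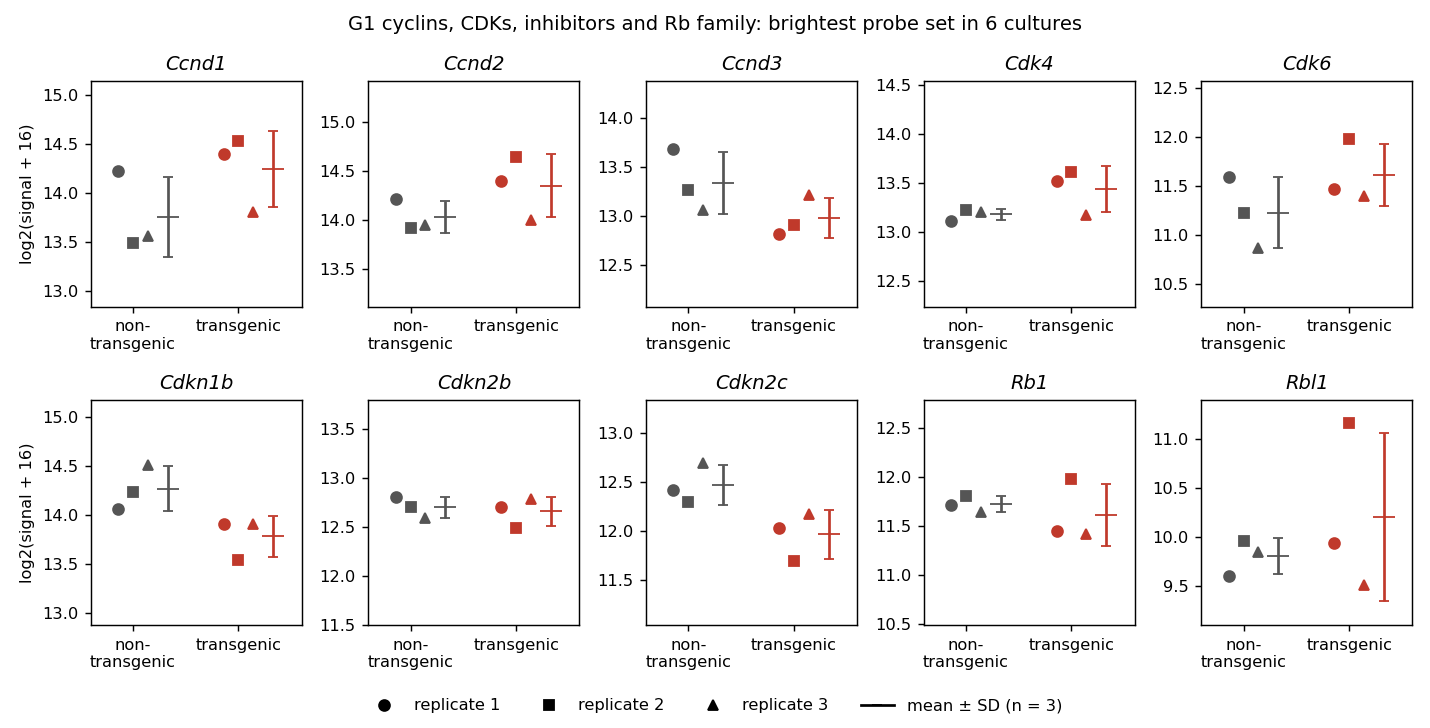
Level, log2(signal + 16), of the brightest probe set of each of the 10 genes in the 3 non-transgenic (grey) and 3 transgenic (red) cultures. Symbols mark replicates 1 to 3 and the bar gives the mean ± SD (n = 3), and every panel spans the same range of log2 units. Cdkn1b and Cdkn2c are the panels without overlap between groups, a separation lost when arrays are scaled to a common median. In Ccnd1, Ccnd2 and Cdk4 transgenic replicates 1 and 2 lie above every non-transgenic culture and replicate 3 does not.

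Among the D-type cyclins, Ccnd1 and Ccnd2 lay higher on average in the transgenic cultures and Ccnd3 lower, and none of the 3 differences passed the test with all 6 arrays. Ccnd1 encodes cyclin D1, the D-type cyclin most closely tied to growth factor and adhesion signals. Its brightest probe set read 14.22, 13.49 and 13.56 in non-transgenic replicates 1 to 3, and 14.40, 14.53 and 13.81 in transgenic replicates 1 to 3, the order kept for all genes. Transgenic replicates 1 and 2 lay above all non-transgenic cultures, and replicate 3 lay below non-transgenic replicate 1, so the groups overlapped. The difference was 0.49 ± 0.25 (SE, n = 3 per group; limma adjusted p = 0.457), a 1.41-fold higher mean, with a 95% interval from -0.09 to 1.07. As these are bulk cultures, more cells in cycle and more RNA of the gene in each cell cannot be told apart here or below. Its other 2 probe sets gave larger differences, 1.04 ± 0.63 and 1.03 ± 0.55, and more spread. On the one at a mean level of 12.98 the cultures read 13.66, 12.13 and 11.60 against 13.99, 14.24 and 12.26. Non-transgenic replicate 1 was again the high culture of its group, and without it the difference of the brightest probe set was 0.72.

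Ccnd2, cyclin D2, was read by 7 probe sets, all above the filter, and all 7 differences were positive, from 0.31 to 0.95. The brightest was at 14.21, 13.92 and 13.94 against 14.40, 14.64 and 13.999. The first 2 transgenic cultures lay above the non-transgenic range and replicate 3 lay inside it. The difference was 0.32 ± 0.17 (limma adjusted p = 0.480, 95% interval -0.08 to 0.72). Without transgenic replicate 3 it was 0.49 (limma adjusted p = 0.0434), the 1 member value past the threshold when a single array was left out. Without transgenic replicate 2 it was 0.17 (limma adjusted p = 0.798), and with the Gapdh ratio in the model 0.11. The largest of the 7 differences came from the probe set at a mean level of 12.48, which read 12.52, 11.62 and 11.87 against 13.04, 13.86 and 11.96. All 7 probe sets were highest in transgenic replicate 2. The one at a mean level of 13.06, which differed by 0.31 ± 0.21, carries the x suffix of the array maker. That suffix is given where probes may also bind other transcripts.

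Ccnd3, cyclin D3, went the other way. It read 13.68, 13.26 and 13.06 against 12.82, 12.91 and 13.21, with replicate 3 inside the non-transgenic range. The difference was -0.35 ± 0.19 (limma adjusted p = 0.480, 95% interval -0.80 to 0.09), and it was -0.06 with median scaling and -0.18 without non-transgenic replicate 1. Adding the Gapdh ratio to the model turned it to 0.14. Its second probe set, at a mean level of 8.997, differed by -0.48 ± 0.37. The remaining probe set lay under the filter and read 8.12, 8.17 and 7.97 against 5.79, 7.497 and 7.77, with no overlap.

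**Figure D2:**
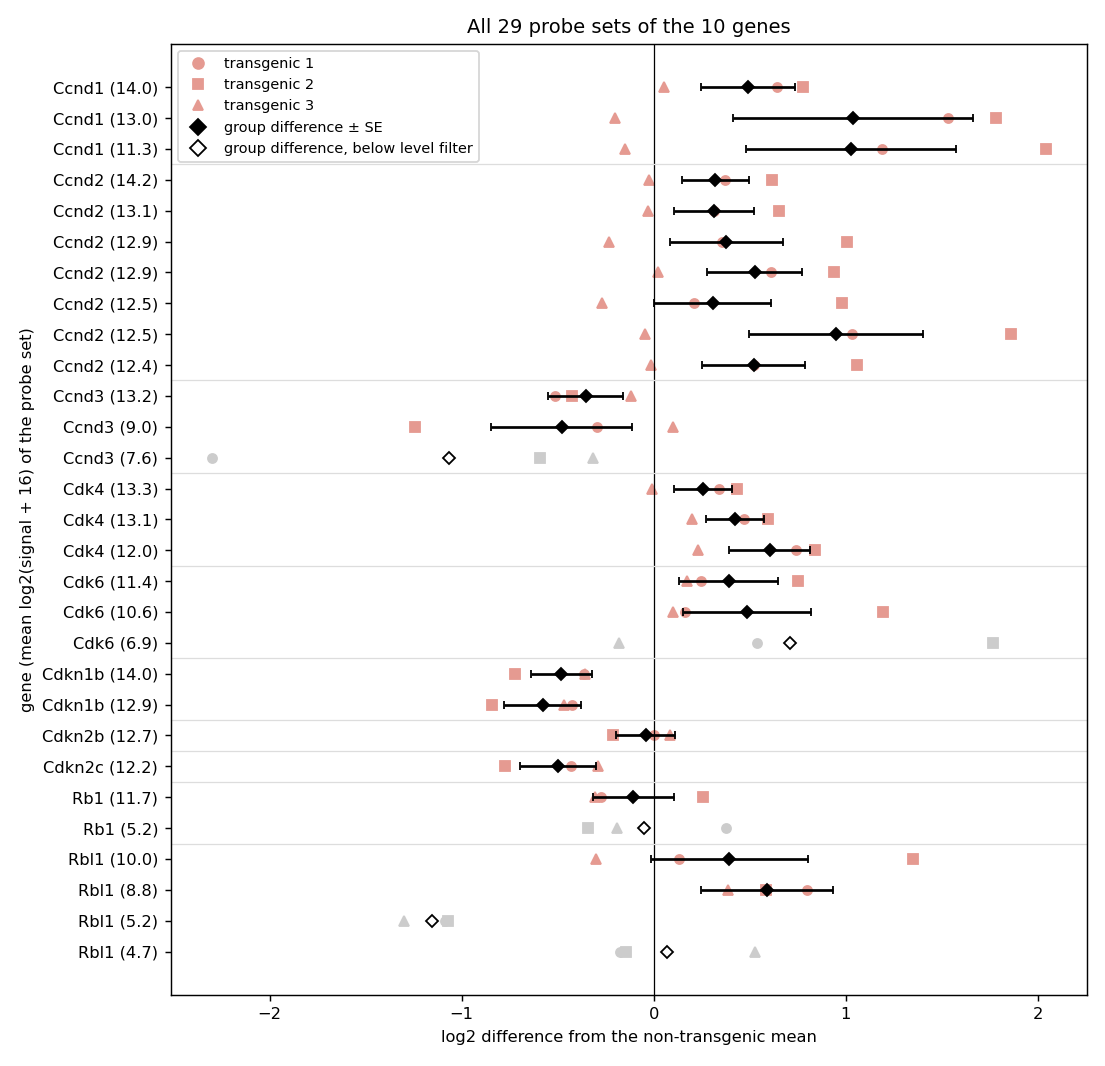
Difference from the non-transgenic mean, in log2(signal + 16), for each of the 29 probe sets, labelled by gene and mean level. Coloured symbols are the 3 transgenic cultures, black diamonds the group difference with limma's SE, and open diamonds and grey symbols the 5 probe sets under the level filter. All 7 Ccnd2, all 3 Ccnd1 and all 3 Cdk4 differences are positive and both Cdkn1b differences are negative, also with median or quantile scaling for the brightest probe set of each. Transgenic replicate 3 lies near 0 on the brightest Ccnd1 and Ccnd2 probe sets and at -0.36 on the brightest Cdkn1b probe set.

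The kinases of the D-type cyclins both lay higher on average, without passing the test. Cdk4, read on its brightest probe set, stood at 13.11, 13.22 and 13.20 against 13.52, 13.61 and 13.17. The non-transgenic cultures were close together (SD 0.06), transgenic replicates 1 and 2 lay above them, and replicate 3 lay within them. The difference was 0.25 ± 0.15 (limma adjusted p = 0.503, 95% interval -0.09 to 0.60), and it was 0.165 without transgenic replicate 2 and 0.39 without transgenic replicate 3. That probe set also carries the x suffix, so its probes may also bind other transcripts. The other 2 did not overlap between the groups. The one at a mean level of 13.12 read 12.97, 12.78 and 12.96 against 13.38, 13.50 and 13.11, a difference of 0.42 ± 0.15. The one at 11.96 read 11.64, 11.80 and 11.55 against 12.40, 12.50 and 11.89, a difference of 0.60 ± 0.21. When every probe set was tested on its own, both had a limma adjusted p of 0.26. Of the 22519 probe sets above the filter, 8.3% lay apart on the higher and 11.8% on the lower side, against 2 and 3 of the 24 member probe sets above it. With the Gapdh ratio in the model the Cdk4 difference was -0.06.

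Cdk6, the second kinase, was at 11.59, 11.22 and 10.87 against 11.47, 11.98 and 11.40. Only transgenic replicate 2 exceeded the highest non-transgenic culture. The difference was 0.39 ± 0.26 (limma adjusted p = 0.541, 95% interval -0.21 to 0.99), and it was 0.21 both without transgenic replicate 2 and without non-transgenic replicate 3. The second probe set, at 10.42, 10.02 and 10.51 against 10.48, 11.51 and 10.41, showed replicate 2 alone outside the range. The last probe set lay under the filter at a mean level of 6.87.

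The inhibitors held the members with the smallest p. Cdkn1b, which encodes p27 of the KIP family, stood at 14.06, 14.23 and 14.51 against 13.91, 13.55 and 13.91. All 3 transgenic cultures, replicate 3 included, lay below all 3 non-transgenic ones, though the gap between transgenic replicate 3 and non-transgenic replicate 1 was small. The difference was -0.48 ± 0.16 (limma adjusted p = 0.428, 95% interval -0.85 to -0.12), a 1.40-fold lower mean. Its second probe set agreed in sign and order, at 12.91, 13.14 and 13.54 against 12.77, 12.35 and 12.73, a difference of -0.58 ± 0.20. Across the alternatives the difference of the gene ran from -0.59 to -0.19. The last value came with median scaling, where the groups overlapped and the median of all genes stood at 0.27. That scaling shifts all genes by nearly the same amount. The 0.46 by which Cdkn1b lay under the median of all genes therefore stays the same by construction.

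Cdkn2c, which encodes p18 of the INK4 family, had 1 probe set. It was at 12.42, 12.29 and 12.69 against 12.04, 11.70 and 12.18, so that all transgenic cultures again lay below the non-transgenic ones. Here too the gap was small, between transgenic replicate 3 and non-transgenic replicate 2. The difference was -0.50 ± 0.19 (limma adjusted p = 0.428, 95% interval -0.94 to -0.05), a 1.41-fold lower mean. It was -0.21 with median scaling, where the groups overlapped, and -0.36 without transgenic replicate 2, the culture farthest below the rest in both genes. Cdkn2b, p15 of the INK4 family and known as a target of TGF-beta, lay at nearly the same level in all cultures. It was at 12.81, 12.70 and 12.59 against 12.70, 12.49 and 12.78, a difference of -0.04 ± 0.15 (limma adjusted p = 0.919). Its 95% interval ran from -0.38 to 0.30. Its sign was positive with median scaling, at 0.25, and with the Gapdh ratio in the model, also at 0.25.

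Of all genes tested, the 3 whose levels followed those of Cdkn1b most closely over the 6 arrays were Rnf146, a ubiquitin ligase (Pearson r = 0.993), Mcee, an epimerase of propionate breakdown (r = 0.989), and Osr1, a zinc finger transcription factor (r = 0.983). These are descriptions over 6 arrays, chosen as the highest of all genes.

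Promoter windows of RefSeq (GRCm38.p6), from 250 bases before to 50 after the annotated start, were held for 7 of the 10 genes in 9 windows. The 2 inhibitors that lay lower in every transgenic culture and Rbl1, a gene known as an E2F target, are shown 5' to 3' on the gene's strand. Cdkn1b lies at chr6:134920151-134920450 on the plus strand, Cdkn2c at chr4:109666707-109667006 on the minus strand (the first of its 2 windows), and Rbl1 at chr2:157204485-157204784 on the minus strand. Capitals mark E2F words (TTTCCCGC, TTTCGCGC, TTTGCCGC or TTTGGCGC) and the SP1 word GGGCGG, each sought on both strands.
Cdkn1b: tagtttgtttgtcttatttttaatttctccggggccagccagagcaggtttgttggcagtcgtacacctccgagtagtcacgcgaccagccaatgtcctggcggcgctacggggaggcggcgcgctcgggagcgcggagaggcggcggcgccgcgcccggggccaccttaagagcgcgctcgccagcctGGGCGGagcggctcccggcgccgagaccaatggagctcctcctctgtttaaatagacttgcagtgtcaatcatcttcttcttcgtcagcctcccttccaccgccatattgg
Cdkn2c: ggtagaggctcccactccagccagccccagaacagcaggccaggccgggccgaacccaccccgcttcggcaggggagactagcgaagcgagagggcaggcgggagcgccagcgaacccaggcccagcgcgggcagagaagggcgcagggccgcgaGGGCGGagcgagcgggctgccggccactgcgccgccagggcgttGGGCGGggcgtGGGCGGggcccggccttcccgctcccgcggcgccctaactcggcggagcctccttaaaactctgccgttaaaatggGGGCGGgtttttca
Rbl1: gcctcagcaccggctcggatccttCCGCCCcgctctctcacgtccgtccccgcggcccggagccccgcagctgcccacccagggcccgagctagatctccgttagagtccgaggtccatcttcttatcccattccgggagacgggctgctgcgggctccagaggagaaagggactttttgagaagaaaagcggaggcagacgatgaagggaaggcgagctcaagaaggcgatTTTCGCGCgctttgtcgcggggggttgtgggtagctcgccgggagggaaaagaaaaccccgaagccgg
Of the 9 windows 1 held an E2F word, that of Rbl1, where TTTCGCGC begins 18 bases before the start. Such a word was found in 2.26% of all 32851 windows. The SP1 word stood once in the Cdkn1b window and 4 times in that of Cdkn2c, and 35.7% of all windows held it. It was also in the windows of Rbl1, Cdkn2b and Cdk4 and in both of Ccnd3, but not in that of Cdk6 or the other window of Cdkn2c. A match describes the letters only, and the absence of these words says nothing about the factors.

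The pocket proteins showed no common direction. Rb1, the retinoblastoma protein, was at 11.72, 11.81 and 11.64 against 11.45, 11.98 and 11.42. Transgenic replicates 1 and 3 lay below and replicate 2 above all non-transgenic cultures. The difference was -0.11 ± 0.21 (limma adjusted p = 0.841, 95% interval -0.59 to 0.37), and it was 0.18 with median scaling. Leaving out transgenic replicates 1, 2 and 3 in turn gave -0.024, -0.29 and -0.0071. A second Rb1 probe set was near the bottom of the scale, at a mean level of 5.24.

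Rbl1, which encodes p107, had the widest spread of the 10 genes, with an SD of 0.86 in the transgenic group. It was at 9.61, 9.97 and 9.85 against 9.94, 11.16 and 9.51. Transgenic replicate 2 was high, replicate 1 inside and replicate 3 below the non-transgenic range. The difference of 0.39 ± 0.42 (limma adjusted p = 0.704, 95% interval -0.57 to 1.36) was -0.08 without replicate 2 and 0.74 without replicate 3. With the Gapdh ratio in the model it was -0.80, and with the beta-actin ratio 0.0004. The second probe set, at a mean level of 8.79, gave 0.59 ± 0.35 from 7.81, 8.66 and 8.998 against 9.29, 9.07 and 8.88. The remaining 2 probe sets lay under the filter, at mean levels of 5.17 and 4.71. The one at 5.17 went the other way without overlap, at 5.83, 5.73 and 5.69 against 4.66, 4.67 and 4.45.

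**Figure D3:**
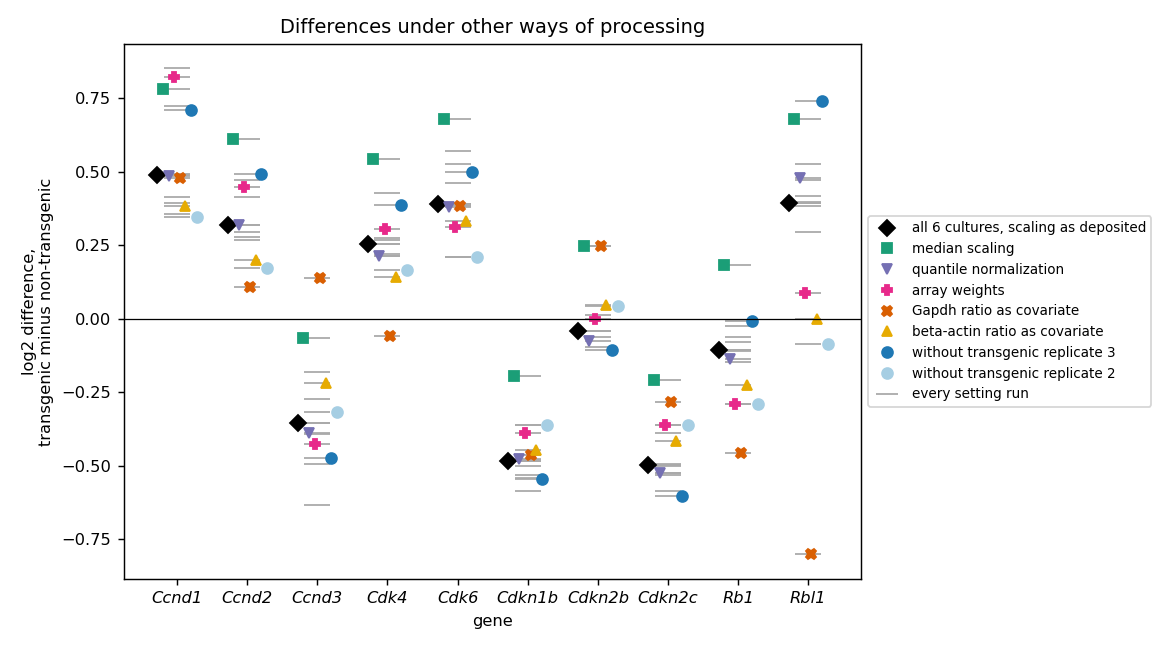
Log2 difference, transgenic minus non-transgenic, of each of the 10 genes under every setting run (grey dashes), with coloured symbols for the settings named in the key. Values above 0 are higher in transgenic cultures. Ccnd1, Ccnd2, Cdk6, Cdkn1b and Cdkn2c keep their sign under every setting run, and Ccnd3, Cdk4, Cdkn2b, Rb1 and Rbl1 cross 0 under at least 1.

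The other genes of the G1 to S step were read from a list of 44 genes in 6 classes, of which 43 were on the array under that symbol and 38 passed the filter. Of the 38, 26 lay higher and 12 lower (33 higher with median scaling), where 47.5% of all genes lay higher (76.4% with median scaling). The median difference of the 38 was 0.17 against -0.02 for all genes, and limma called 0 of them. The groups did not overlap for 3, all higher in the transgenic cultures, where 9.39% of all genes lay apart on that side. Without transgenic replicate 3 they were 18 higher and 6 lower, against 22.8% and 27.4% of all genes, and with median scaling 12 higher and 0 lower, against 32.4% and 0.892%. The 3 were cyclin E1 (Ccne1), Skp2, the F-box protein that marks p27 for breakdown, and Fbxo4, an F-box protein. Ccne1 was at 10.47, 9.81 and 9.42 against 11.02, 11.77 and 10.55, a difference of 1.21 ± 0.39 (limma adjusted p = 0.428). Skp2 was at 9.39, 8.99 and 9.08 against 9.96, 10.45 and 9.45, a difference of 0.80 ± 0.31 (limma adjusted p = 0.428). The Ccne1 probe set also has the x suffix, as do those of Foxm1 and Rbbp4 below. In both genes transgenic replicate 3 was the lowest of its group and lay only just above the highest non-transgenic culture. Fbxo4 was named after its values were seen and differed by 0.25 ± 0.20 (limma adjusted p = 0.599). Its groups barely separated, with transgenic replicate 3 at 10.970 and non-transgenic replicate 2 at 10.965.

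By class, the 5 tested genes of cyclins E and A, Cdk2 and its activating phosphatase all lay higher, with Cdc25a, that phosphatase, at 0.55 ± 0.29 and Cdk2 itself at 0.05. Cdk2 is named here after its values were seen. The class counts here stand beside 47.5% higher among all genes tested. Of the other inhibitors 3 of 4 lay higher. Cdkn2a, which encodes p16 and p19, differed by 1.07 ± 0.43, from 10.59, 9.98 and 9.28 to 11.14, 11.62 and 10.29. Cdkn1a, which encodes p21 and is induced by p53, differed by 0.31 ± 0.14, or by 0.20 without transgenic replicate 2. These signs are opposite to those of Cdkn1b and Cdkn2c, and none of the 4 genes passed the test (limma adjusted p = 0.428, 0.442, 0.428 and 0.428 for Cdkn2a, Cdkn1a, Cdkn1b and Cdkn2c). Cdkn1c, named after its values were seen, was the gene of this class that lay lower, as Cdkn1b and Cdkn2c did. It differed by -0.33 ± 0.24 (limma adjusted p = 0.577). Of the E2F, DP and pocket genes 7 of 10 lay higher. E2f8, an E2F that represses, differed by 1.98 ± 0.98, and Tfdp2, a dimer partner of E2F, by -0.95 ± 0.44. Both differences depended on the culture left out. E2f8 was 1.001 without transgenic replicate 2 and 3.15 without replicate 3, and Tfdp2 was -0.61 and -1.47. Rbl2, which encodes p130, the pocket protein of resting cells, is given as the remaining member of the family, after its values were seen. It stood at 11.54, 11.71 and 11.57 against 10.91, 10.19 and 11.64, with transgenic replicate 3 inside the non-transgenic range, and differed by -0.70 ± 0.35 (limma adjusted p = 0.453), or by -1.06 without that replicate. The Cdk-activating kinase had Cdk7 at -0.79 ± 0.38 (-0.40 without transgenic replicate 2, -1.19 without replicate 3) and its cyclin Ccnh at 0.08. In the class of SCF turnover 5 of 10 lay higher, with Cks2, a small Cdk-binding protein, at 1.26 ± 0.62, which was 0.75 without transgenic replicate 2 and 2.07 without replicate 3. In that of the MuvB complex and its partners 4 of 6 lay higher, with the mitotic factor Foxm1 at 0.81 ± 0.53 (0.44 and 1.44 in the same refits) and the histone-binding protein Rbbp4 at -0.15, which was 0.14 with median scaling. Without transgenic replicate 3 limma called 15 of the 38 genes, 11 higher and 4 lower, in a fit that called 6.88% of all genes as higher and 7.83% as lower. Among those named here they were Ccne1, Cdkn2a, Skp2, Cks2, E2f8 and Foxm1 higher and Tfdp2, Rbl2 and Cdk7 lower. With the Gapdh ratio in the model Cks2 stood at 0.07, E2f8 at 0.11 and Foxm1 at -0.10. In the same refit Ccne1 stood at 1.02, Cdkn2a at 0.92, Skp2 at 0.39, Tfdp2 at -0.41 and Cdk7 at -0.18. Since this refit tells group from ratio poorly, these values do not sort the genes by RNA quality.

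**Figure D4:**
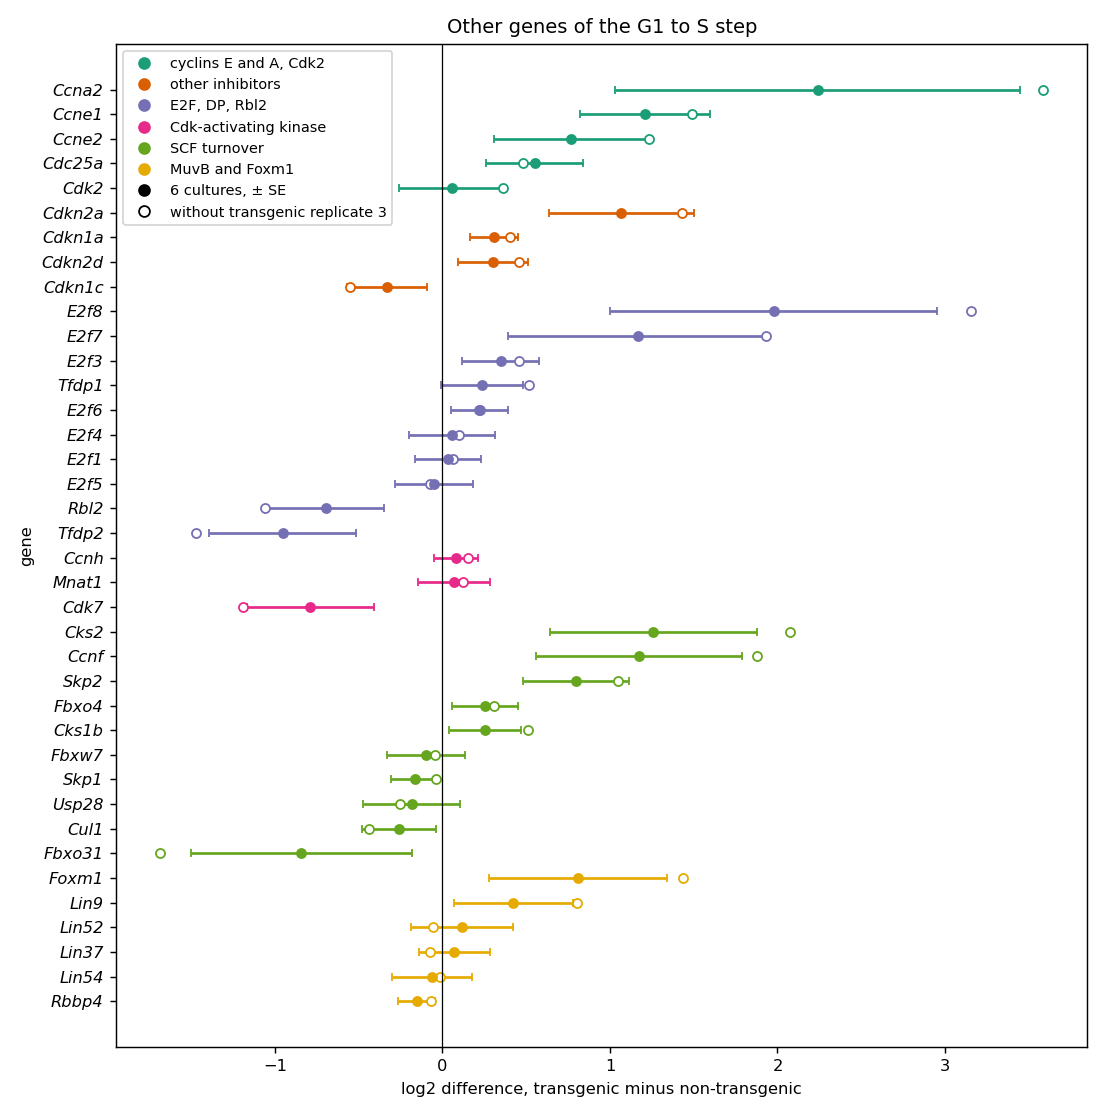
Log2 difference, transgenic minus non-transgenic, of the 38 other G1 to S genes above the level filter, coloured by class. Filled circles with limma's SE use all 6 cultures and open circles leave out transgenic replicate 3. E2f8, Cks2 and Foxm1 are among the genes that lie farther to the right without that culture. Right of 0 lie 26 of the 38 filled circles (33 with median scaling), against 47.5% of all genes tested (76.4% with median scaling).

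Genes of later cell cycle stages are set beside the members culture by culture, as deviations from the non-transgenic mean averaged over a list. The 14 tested mitotic genes stood at 0.76, -0.40 and -0.37 against 2.20, 2.73 and -0.30. The 18 tested E2F targets of DNA synthesis stood at 0.28, -0.12 and -0.16 against 1.30, 1.77 and 0.09. Ccnd1 and Ccnd2 were likewise high in transgenic replicates 1 and 2 and in non-transgenic replicate 1. The level of Cdkn1b in transgenic replicate 3 lay 0.36 under the non-transgenic mean and that of Cdkn2c 0.29 under it, in a culture where both lists stood within the non-transgenic range. Cdkn1b was lowest of each group where both lists were highest, in non-transgenic replicate 1 (14.06) and transgenic replicate 2 (13.55). Cdkn2c was lowest in replicate 2 of each group (12.29 and 11.70). How these genes relate to the lists was not tested.

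Cell type markers also differed between cultures. Cdh5, whose promoter drives the transgene, and Pecam1 lay under the level filter on all 6 arrays. Of the other defining endothelial genes, Tek was above it on 5 arrays and Kdr on 2. On average 7 of 20 endothelial markers lay above it, against 14 of 14 fibroblast markers. The summed signal of the endothelial list ran from 13688 to 18197 in the non-transgenic and from 14346 to 20009 in the transgenic cultures, and that of the fibroblast list from 220560 to 252580 and from 204350 to 222160. The 9 adipocyte markers summed to 41400 to 83211 against 21875 to 38438, with no overlap in the sum. As a mean deviation over the tested markers of that list the cultures stood at 1.49, -0.50 and -0.99 against -1.59, -3.00 and -0.67, with transgenic replicate 3 inside the non-transgenic range, and 1 of the 7 tested genes lay apart. Their defining gene Adipoq was above the filter on every array, at 14.33, 12.87 and 12.13 against 11.41, 8.30 and 12.30. Of 16 leukocyte markers 5, 4 and 5 lay above the filter on the non-transgenic arrays, against 5, 10 and 4, with summed signals of 3304 to 4980 against 4874 to 22270. The highest was transgenic replicate 2, the culture with the highest Ccnd1, Ccnd2, Cdk4, Cdk6, Rb1 and Rbl1 and the lowest Cdkn1b, Cdkn2b and Cdkn2c. Ptprc and Adgre1, which define leukocytes and macrophages, lay under the filter on every array. Csf1r, the receptor of a macrophage growth factor, was named after its values were seen. It was above the filter on all 6 arrays, at 8.94, 9.06 and 8.61 against 11.03, 10.49 and 10.59, with every transgenic culture, replicate 3 included, above the non-transgenic ones. Summed smooth muscle markers (50512 to 67508 against 51124 to 65416) and mesothelial markers (2482 to 5217 against 2650 to 6525) overlapped. The part of other cell types in the differences of the 10 genes was not tested.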

How the data were processed

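RNA of 6 cultures, 3 per group, was measured on 1 array each. The values deposited by the authors are linear intensities, 1 for each probe set of an array. MAS5 made them, per the submitters' processing notes, and its version is not given in these sources. Trimmed of 2% at either end, every array averaged 1500.01, and this scaling was kept. Any pair of arrays held the same value for at most 0.142% of probe sets. Per the labels' protocols, about 50 ng of total RNA was amplified in a two-step reaction.

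Of 45101 probe sets, 64 were controls, the array annotation gave 1 gene for 34945, several for 932, which were left unnamed, and none for 9160. RefSeq's mouse table (GRCm38.p6) supplied current symbols by gene identifier. Values were log2(intensity + 16). The probe set with the highest average stood for its gene, and 11208 genes with a mean of at least 7.717 (a signal of 194) were tested with limma 3.58.1 (lmFit, then eBayes with a trend; R 4.3.3), two-sided, with Benjamini-Hochberg adjustment. The test was checked on simulated data. The number of arrays limits the precision.

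The members and the gene lists were chosen with earlier results of these data known. The genes named are the 10 members, the 2 genes of each class of other G1 to S genes with the smallest p, and the 3 genes most like the member with the smallest p. Of the marker lists, genes that define endothelial cells, adipocytes or leukocytes are named. Fibroblast, smooth muscle and mesothelial markers are given by their lists only. Genes outside this rule are said to be so where they appear, and the plot of other G1 to S genes labels all 38. Lists are described by counts, with no test of their own. The alternatives changed the pseudocount, the filter, the scaling, the variance prior or the way probe sets were combined, added array weights, a replicate block or a control ratio, or left out an array. The counts of members without overlap under alternatives were added after seeing the data.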

Additional observations from a re-analysis of the deposited data

How the results depend on the processing

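Of 188 values of the 10 genes under the alternatives, 171 kept their sign and stayed short of the threshold, 7 kept their sign and passed it, and 10 changed sign. limma called 5504 genes and 6 members with array weights. The weights were 0.553, 4.65 and 1.2 for non-transgenic replicates 1 to 3 and 5.24, 0.349 and 0.177 for transgenic replicates 1 to 3. That fit thus rests mostly on non-transgenic replicate 2 and transgenic replicate 1. The 6 were Ccnd1 (0.82), Ccnd2 (0.45), Ccnd3 (-0.42), Cdk4 (0.31), Cdkn1b (-0.39) and Cdkn2c (-0.36), among 49.1% of all genes called. Leaving out 1 array gave 0 to 1649 called genes and 0 to 1 called members, the highest being without transgenic replicate 3. With all 6 arrays, 1288 genes had an unadjusted p under 0.05 in limma.

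The sign turned for Ccnd3 (0.14), Cdk4 (-0.059), Cdkn2b (0.25) and Rbl1 (-0.80) with the Gapdh ratio as a covariate, for Cdkn2b (0.046) with the beta-actin ratio, and for Cdkn2b (0.25) and Rb1 (0.18) with median scaling. When 1 array was left out Cdkn2b ran from -0.10 to 0.043, turning at 0.012 without the first non-transgenic culture and at 0.043 without the second transgenic one. Rbl1 ran from -0.084, without that same transgenic culture, to 0.74. Why these signs turned was not tested. The members without overlap numbered 2 to 6 when 1 array was left out, with 5 without non-transgenic replicate 1 (3 higher, 2 lower, against 18.1% and 14.9% of all genes) and 6 without transgenic replicate 3. With median scaling they were Ccnd2, Cdk4 and Cdk6, all higher, against 32.4% of all genes higher and 0.892% lower. With the filter at the 75th percentile 13 of the other G1 to S genes lay higher instead of 26, as fewer were tested.

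The labels give both groups replicate numbers, but the cultures came from different mice. Deviations of same-numbered cultures correlated at 0.04, -0.28 and -0.03 across genes, which shows no pairing by number. With so few cultures per group such correlations cannot exclude one. With the replicate number as a block limma called 0 genes and 0 members, and 1117 genes had an unadjusted p under 0.05.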
